A study of Mus musculus with 6 samples.

Results

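Gpsm1 and 9 other genes of Gi/o signalling were followed in RNA of astrocyte-labelled samples from APP/PS1 mice, a strain that carries mutant human amyloid precursor protein and presenilin transgenes and forms amyloid plaques. The 10 genes were taken by symbol from the 36210 gene rows of the deposited expression table: Gpsm1, Gpsm2 and Gpsm3, Rgs2, Rgs4, Rgs7 and Rgs14, and Gnai1, Gnai2 and Gnao1. Each had 1 row, and all 10 were among the 20363 genes that passed the filter on low counts. Gpsm1 was chosen by its difference in the comparison described here, where edgeR called it higher (adjusted p = 0.043), and the other 9 were added as its pathway with results of that comparison known. The differences of these 10 genes between the groups are therefore a description, and no test is read from them.

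The series compared 3 vehicle libraries with 3 AVE0991 libraries, all from brain of APP/PS1 mice aged 8 months. Vehicle mice received 0.9% sterile saline and treated mice AVE0991 at 10 mg per kg, in both groups as a daily intraperitoneal injection for 30 days. AVE0991 is a synthetic agonist of Mas, the receptor of angiotensin-(1-7). There was no wild-type group, and the labels do not say whether each library came from its own animal, so the spread behind each p-value is that between libraries and may be technical.

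Heterotrimeric G proteins of the Gi/o class couple many transmitter receptors to lower cyclic AMP and to the opening of GIRK potassium channels. The alpha subunit is switched on by GTP and off by hydrolysis of that GTP. RGS proteins speed the hydrolysis and so shorten the signal, whereas GoLoco-motif proteins such as the Gpsm family hold Gi alpha in its GDP-bound form, free of the beta and gamma subunits, and work in spindle orientation and in signalling without a receptor. In brain, Gnao1, Rgs4 and Rgs7 are known chiefly from neurons, and Rgs14 from hippocampal neurons.

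Libraries held 44583296 to 50066692 counts on gene rows. The labels name astrocytes, and all 10 astrocyte markers were detected (summed level 1311 to 1453 FPKM in vehicle and 1537 to 1996 FPKM in AVE0991 libraries), but the 10 neuron markers (2016 to 2118 and 1698 to 2145 FPKM) and the 10 mature oligodendrocyte markers (1731 to 3886 and 2637 to 5384 FPKM) summed to more in every library except neuron markers in AVE0991 replicate 3. FPKM, the authors' value scaled to transcript length and library depth, is used here for levels between genes, for shares and for some comparisons of the groups. The largest term of the oligodendrocyte sum in every library was Mbp. It was at 1074, 2456 and 2453 FPKM in vehicle and 1747, 3843 and 1817 FPKM in AVE0991 replicates 1, 2 and 3. The comparison of that sum with the astrocyte sum therefore leans on 1 gene. No marker of the 13 cell type lists was at 0. The 8 cerebellar granule cell markers summed to 67.5 to 82.1 FPKM in vehicle libraries and to 75.4, 505 and 504 FPKM in AVE0991 replicates 1, 2 and 3, so replicates 2 and 3 stood apart. In such bulk RNA, fewer cells of a type and less RNA per cell cannot be told apart.

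The 250 bases before an annotated transcription start are shown for Gpsm1, whose mean differed most upward among the 10 genes, and for Rgs2 and Rgs4, which differed most downward and were lowest in the same libraries. The sequences are from RefSeq on GRCm38.p6 and run 5′ to 3′ on the gene's strand. Capitals mark the motifs searched on both strands: the GC box GGGCGG, the TATA motif TATAAA and the cyclic AMP response element half-site TGACG. No matches overlapped another motif. Of the 4 Gpsm1 starts in the table, the one with the highest GC content is shown. Which start these cells used was not measured.
Gpsm1 (chr2:26315283-26315532, plus strand): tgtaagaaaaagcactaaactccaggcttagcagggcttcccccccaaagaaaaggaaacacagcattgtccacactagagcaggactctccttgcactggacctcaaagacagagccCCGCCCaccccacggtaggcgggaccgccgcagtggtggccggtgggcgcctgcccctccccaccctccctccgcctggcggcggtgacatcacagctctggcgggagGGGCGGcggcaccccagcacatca
Rgs2 (chr1:144004150-144004399, minus strand): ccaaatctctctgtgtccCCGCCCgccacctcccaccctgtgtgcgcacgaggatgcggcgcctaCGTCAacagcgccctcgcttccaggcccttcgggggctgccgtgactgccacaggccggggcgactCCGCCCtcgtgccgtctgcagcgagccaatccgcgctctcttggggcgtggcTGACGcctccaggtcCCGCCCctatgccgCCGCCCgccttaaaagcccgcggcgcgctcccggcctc
Rgs4 (chr1:169747643-169747892, minus strand): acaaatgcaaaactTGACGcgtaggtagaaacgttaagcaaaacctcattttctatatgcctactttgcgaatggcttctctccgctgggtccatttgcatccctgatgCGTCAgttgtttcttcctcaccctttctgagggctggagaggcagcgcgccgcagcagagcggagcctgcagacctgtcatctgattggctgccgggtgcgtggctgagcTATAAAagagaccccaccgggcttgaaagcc

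The Gpsm1 window shown held 2 GC boxes and neither of the other motifs. Of its other starts, the one farthest downstream held 3 GC boxes and 1 TATA motif, and the other two held neither of these. The Rgs2 window held 4 GC boxes and 2 half-sites, and the Rgs4 window 1 TATA motif and 2 half-sites. Over all 32851 windows of that length in the table, 32.7% held the GC box, 12.4% the TATA motif and 17.8% the half-site. The window was 64.4% GC in Gpsm1, 72.4% in Rgs2 and 53.6% in Rgs4. A match describes the letters and does not show that a factor bound there. Starts were listed for 8 of the 10 genes, all but Rgs14 and Gnai2.

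By level per length, the alpha subunits Gnao1 and Gnai2 were the most abundant of the 10 genes and the Gpsm2 and Gpsm3 transcripts the least. In vehicle libraries Gnao1 stood at 209 ± 7.57 FPKM (SD, n = 3, as for each mean here) and Gnai2 at 115 ± 6.74 FPKM. Rgs4 at 67.3 ± 12.3 and Gnai1 at 53.3 ± 2.04 FPKM followed, and their libraries overlapped. Rgs7 (26.4 ± 3.98 FPKM), Rgs14 (20.7 ± 7.73 FPKM) and Gpsm1 (17.7 ± 1.22 FPKM) came next. Rgs14 ranged from 13.4 to 28.8 FPKM and overlapped both of its neighbours in this order. Rgs2 (10.0 ± 0.376 FPKM), Gpsm2 (3.68 ± 0.173 FPKM) and Gpsm3 (2.55 ± 0.334 FPKM) closed the order without overlap. In AVE0991 libraries Gpsm1, at 28.4 ± 2.60 FPKM, stood above Rgs7 (19.0 ± 3.10 FPKM) in every library. Rgs4, at 18.5 to 61.8 FPKM, then overlapped Gnai1, Gpsm1, Rgs7 and Rgs14. The level of Gnao1 depended on the length used: it was 209 FPKM over all 6 libraries as deposited and 127 when CPM was divided by the length of the longest annotated transcript in kilobases.

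Gpsm1, also called AGS3, encodes a GoLoco protein of the cytosol. It was measured at 53.5, 57.7 and 59.4 CPM in vehicle replicates 1, 2 and 3, and at 86.3, 107 and 95.6 CPM in AVE0991 replicates 1, 2 and 3, where CPM is the count scaled to library size by TMM. All 3 AVE0991 libraries were above all vehicle libraries, and the gap between the groups was wider than the range within either. The mean was 1.70-fold higher with AVE0991 (log2 fold change 0.76, SE 0.11), and the authors' deposited table gives a log2 fold change of 0.78. Of the 10 genes, 1 was called higher and 0 lower, while over all genes 0.0344% were called higher and 0.830% lower, 0.864% in all, at an edgeR adjusted p under 0.05. At an unadjusted p under 0.05 stood 4 of the 10 and 4796 of all genes. DESeq2 called 2 of the 10 higher and 1 lower, against 4.97% and 6.56% of all genes (11.5% in all). By limma-voom 1 of the 10 was called higher and 2 lower, against 2.20% and 3.54% (5.75% in all). The Gpsm1 log2 fold change was 0.68 to 0.84 with any 1 library left out. It was 0.61 with AVE0991 replicates 2 and 3 both left out. The edgeR call was lost with any 1 library left out except AVE0991 replicate 1. In the fits with 1 library left out that lost it, edgeR called 0 genes of all. A correction of each library for transcript GC content also ended the call, with the log2 fold change at 0.55 (SE 0.09). That fit called 1 gene of all higher and 0 lower.

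**Figure D1:**
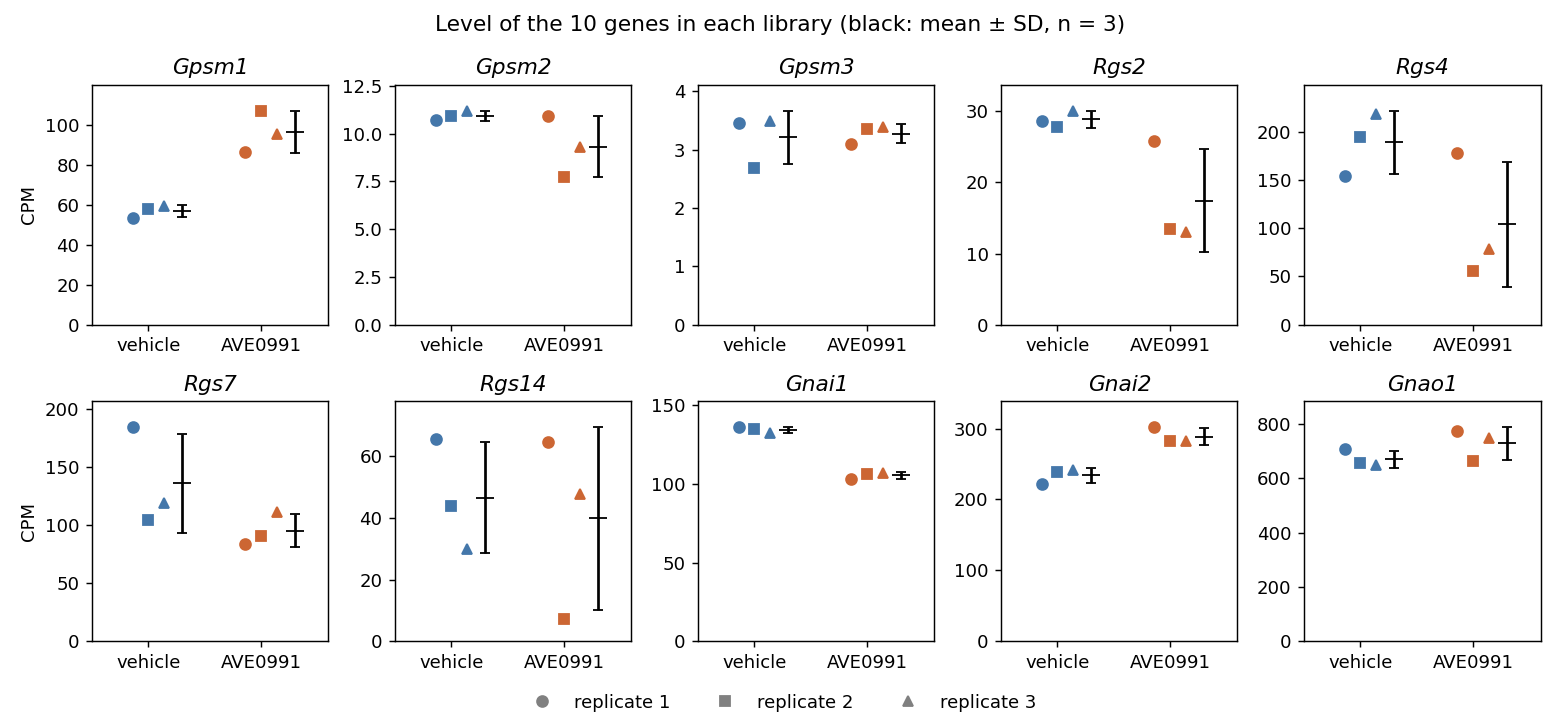
TMM-scaled CPM of the 10 genes in each library, 1 panel per gene with its own linear axis from 0 (circle, square and triangle: replicates 1, 2 and 3; black bars: mean ± SD, n = 3). The groups do not overlap for Gpsm1 and Gnai2, higher with AVE0991, and for Gnai1 and Rgs2, lower with AVE0991.

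Gpsm2, or LGN, the spindle-orienting relative of Gpsm1, did not follow it. Gpsm2 was at 10.7, 10.9 and 11.2 CPM in vehicle replicates 1, 2 and 3 and at 10.9, 7.73 and 9.31 CPM in AVE0991 replicates 1, 2 and 3. The AVE0991 replicate 1 value lay within the vehicle range, and the other two were below it. The log2 fold change was -0.23 (SE 0.15), and it was 0.01 without AVE0991 replicates 2 and 3. Gpsm3, a short GoLoco protein known from immune cells, ranged from 2.68 to 3.49 CPM over the vehicle and from 3.09 to 3.38 CPM over the AVE0991 libraries, which overlapped (0.03, SE 0.18).

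As a share of the summed FPKM of the 3 Gpsm genes, Gpsm1 made up 74.0% ± 1.60 in vehicle and 83.6% ± 2.41 in AVE0991 libraries. Gpsm2 made up 15.4% ± 0.134 and 9.07% ± 2.13, and Gpsm3 10.7% ± 1.56 and 7.28% ± 0.364. The shares of none of the 3 genes overlapped between the groups. Shares of a pool depend on each other, so a higher Gpsm1 level alone lowers the shares of Gpsm2 and Gpsm3. The FPKM of Gpsm2 and of Gpsm3 themselves overlapped, with means of 3.68 and 2.55 FPKM in vehicle and 3.04 and 2.46 FPKM in AVE0991 libraries. The exons of Gpsm1 and Gpsm2 overlap those of Dnlz and Clcc1 on the opposite strand, and those of Gpsm3 overlap Pbx2 on the same strand, in GENCODE M21. Strand use in counting, not given in the sources used here, is unknown, and reads in these overlaps could count for either gene. The neighbours stood at log2 fold changes of 0.09 (SE 0.08) for Dnlz, -0.02 (SE 0.12) for Clcc1 and 0.03 (SE 0.09) for Pbx2.

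**Figure D2:**
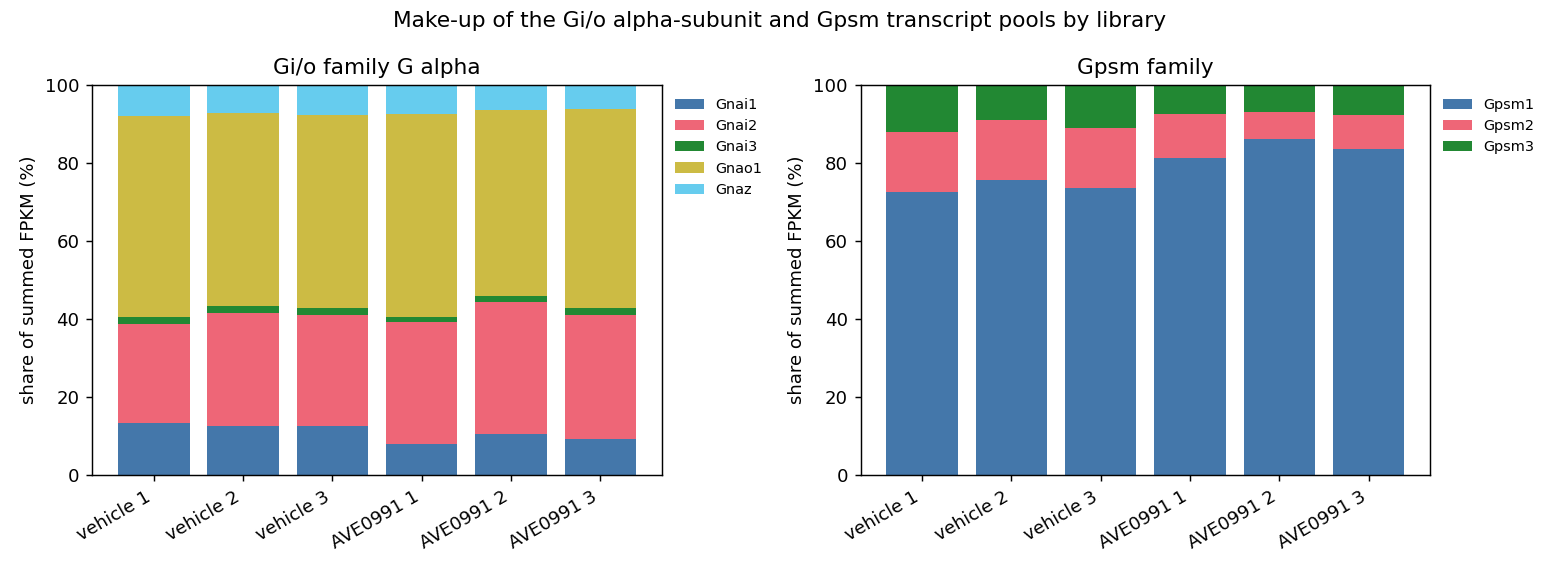
Share of the summed FPKM taken by each gene within the Gi/o alpha-subunit family (left, 5 genes) and the Gpsm family (right, 3 genes), 1 stacked bar per library. Gpsm1 takes 72.5% to 75.7% of its pool in vehicle and 81.3% to 86.1% in AVE0991 libraries, and the Gnai1 share is 12.5% to 13.2% and 8.00% to 10.4%.

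The alpha subunits differed in direction. Gnai1, an inhibitor of adenylyl cyclase, was at 136, 135 and 132 CPM in vehicle replicates 1, 2 and 3 and at 103, 106 and 107 CPM in AVE0991 replicates 1, 2 and 3. The groups did not overlap, and the spread within each was small, with an SD of 1.94 and 2.10 CPM. Its mean was 1.27-fold lower with AVE0991 (log2 fold change -0.35, SE 0.08). Gnai2, a close relative with a broad distribution that includes glia and immune cells, was at 222, 239 and 241 CPM in vehicle and 302, 282 and 282 CPM in AVE0991 replicates 1, 2 and 3. These groups did not overlap either, and the mean was 1.24-fold higher with AVE0991 (0.31, SE 0.09). Gnao1, the most abundant alpha subunit of neurons, ranged from 649.8 to 707 CPM over the vehicle and from 662 to 776 CPM over the AVE0991 libraries, which overlapped (0.12, SE 0.11).

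Of the 10 genes, 2 were without overlap upward and 2 downward, against 14.3% and 16.3% of all genes tested (30.6% in all). Gnai1 and Gnai2 did not pass the edgeR threshold; DESeq2 called Gnai1 lower and Gnai2 higher, and limma-voom called Gnai1 lower. In the authors' deposited table Gnai1 has a q-value of 0.0268 and Gnai2 one of 0.0813. Within the pool of 5 Gi/o alpha subunits, Gnai1 made up 12.8% ± 0.365 of summed FPKM in vehicle and 9.22% ± 1.22 in AVE0991 libraries, Gnai2 27.6% ± 1.88 and 32.4% ± 1.34, and Gnao1 50.1% ± 1.32 and 50.3% ± 2.25. The shares of Gnai1, of Gnai2 and of Gnai3 (1.74% to 1.79% in vehicle and 1.26% to 1.68% in AVE0991 libraries) did not overlap between the groups. Those of Gnao1 and Gnaz overlapped. As in the Gpsm pool, the shares depend on each other.

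The RGS genes were lower on average in AVE0991 libraries, but unevenly. Rgs4, which acts on Gi/o and Gq subunits, was at 154, 195 and 218 CPM in vehicle replicates 1, 2 and 3 and at 178, 55.9 and 78.0 CPM in AVE0991 replicates 1, 2 and 3. AVE0991 replicate 1 lay within the vehicle range, and replicates 2 and 3 lay far below it. Rgs2, an RGS protein that prefers Gq and is induced by activity, was at 28.7, 27.8 and 30.1 CPM in vehicle and 25.8, 13.5 and 13.0 CPM in AVE0991 replicates 1, 2 and 3. Here the groups did not overlap, yet replicate 1 was close to the vehicle libraries and the same replicates 2 and 3 were low. The log2 fold changes were -0.86 (SE 0.42) for Rgs4 and -0.72 (SE 0.27) for Rgs2.

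With AVE0991 replicate 1 left out, edgeR called Rgs4 (-1.49) and Rgs2 (-1.12) lower; in that fit 6.63% of all genes were called higher and 4.76% lower (11.4% in all). With replicates 2 and 3 left out, which leaves 1 treated library that is assumed to vary like the vehicle group, the values were -0.07 and -0.15.

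Rgs14, which joins an RGS domain to a GoLoco motif and is known from hippocampal area CA2, varied most within groups. It was at 65.6, 43.9 and 30.0 CPM in vehicle and 64.7, 7.12 and 47.6 CPM in AVE0991 replicates 1, 2 and 3. The groups overlapped, and AVE0991 replicate 2 was the lowest of the 6 libraries. Its coefficient of variation was 38.6% in vehicle and 74.3% in AVE0991 libraries, against a median of 12.4% and 18.4% over all genes tested. The log2 fold change of -0.22 (SE 0.71) became 0.28 without AVE0991 replicate 2 and 0.14 without vehicle replicate 1.

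Levels of regional neuron markers are set beside these genes. In AVE0991 replicates 1, 2 and 3, Rgs4 stood at -0.12, -1.86 and -1.39, and Rgs2 at -0.20, -1.20 and -1.26, as log2 of FPKM over the vehicle mean. On the same scale the summed cerebellar granule cell markers stood at -0.02, 2.72 and 2.72, and the 9 striatal projection neuron markers at 0.97, -0.82 and -0.83. The low values of Rgs2 and Rgs4 thus fell in the 2 AVE0991 libraries with high granule cell and low striatal markers. In vehicle replicates 1, 2 and 3 the striatal markers stood at -0.57, -0.27 and 0.58. Rgs4 stood there at -0.32, 0.06 and 0.21, and Rgs2 at -0.03, -0.03 and 0.06. Vehicle replicate 1 thus had low striatal markers without a low Rgs2 value. Rgs14 stood at 0.48, -0.06 and -0.63 in vehicle and 0.44, -2.80 and -0.07 in AVE0991 replicates 1, 2 and 3. The 8 cortical and hippocampal excitatory neuron markers stood at 0.39, -0.15 and -0.35 and at 0.18, -1.73 and -0.08, in the same order of libraries within each group. The sum of the 4 hippocampal CA2 markers did not follow Rgs14: it stood at -0.35, 0.15 and 0.14 and at 0.43, -0.18 and -0.09. That sum was mostly Pcp4 and Necab2, with means of 97.7 and 47.4 FPKM, against 8.22 for Cacng5 and 6.75 for Amigo2. Necab2 was at 77.8, 24.5 and 31.0 FPKM in AVE0991 replicates 1, 2 and 3, high and low in the same AVE0991 libraries as the striatal markers. In vehicle replicates 1, 2 and 3 Necab2 was at 50.2, 53.5 and 47.4 FPKM. It did not follow the striatal markers there, which summed to 208, 255 and 462 FPKM. Whether the sum of the CA2 markers reads CA2 content was not tested. Gpsm1 stood at 0.56, 0.82 and 0.64 in AVE0991 replicates 1, 2 and 3, and the 10 astrocyte markers at 0.15, 0.46 and 0.53, so the summed astrocyte markers were also above every vehicle library in all 3. The largest term of that sum was Aldoc, which the Purkinje cell list also holds, at 437 to 495 FPKM in vehicle and 584, 815 and 865 FPKM in AVE0991 replicates 1, 2 and 3. By CPM, Aldoc, Gfap, Slc1a3, Aldh1l1, Gjb6 and Sox9 were higher without overlap. Slc1a2 (log2 fold change -0.32), Gja1, Aqp4 and Slc4a4 overlapped between the groups. AVE0991 replicate 1 differed from vehicle in make-up too, with the highest striatal markers of the 6 libraries (0.97) and endothelial markers at -1.08. The part of cell type and regional make-up in the Gpsm1 and RGS values was not tested.

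**Figure D3:**
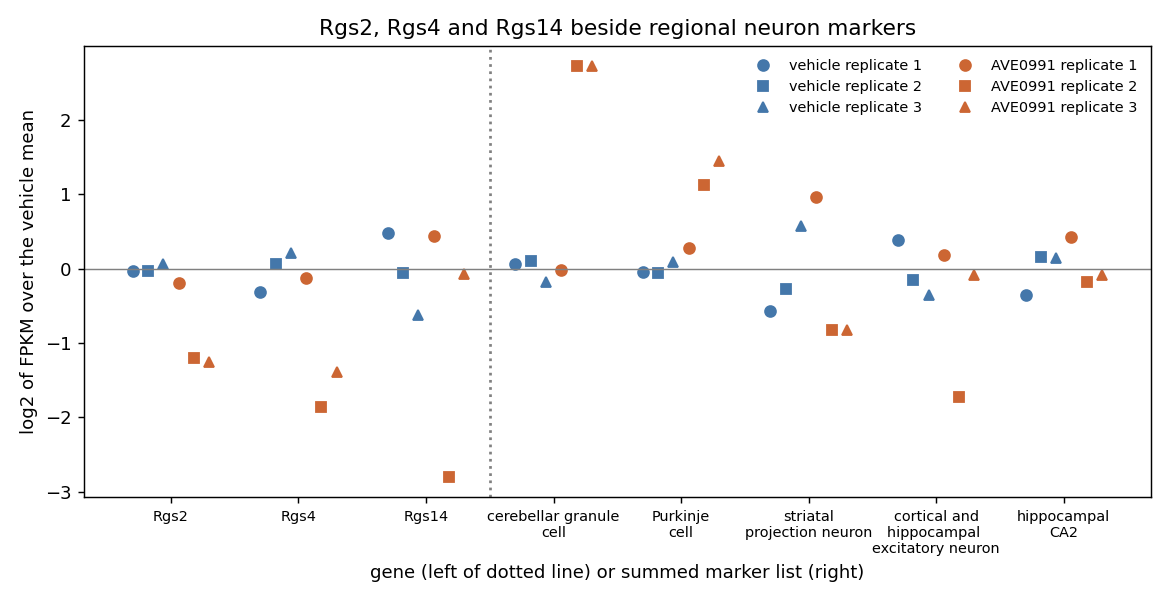
Log2 of FPKM over the vehicle mean for Rgs2, Rgs4 and Rgs14 (left of the dotted line) and for summed regional neuron markers (right), 1 point per library. AVE0991 replicates 2 and 3 sit lowest for Rgs2 and Rgs4 and at 2.72 for granule cell markers, and AVE0991 replicate 2 is lowest for both Rgs14 and the cortical and hippocampal list.

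Rgs7, an R7-class RGS protein that works as a dimer with Gnb5 and is tethered by Rgs7bp, was at 184, 104 and 119 CPM in vehicle and at 84.0, 90.3 and 111 CPM in AVE0991 replicates 1, 2 and 3. By CPM the groups overlapped, since AVE0991 replicate 3 lay above vehicle replicate 2, and vehicle replicate 1 stood highest. By FPKM they did not overlap, at 31.0, 23.7 and 24.6 FPKM in vehicle and 20.9, 15.5 and 20.7 FPKM in AVE0991 replicates 1, 2 and 3. The log2 fold change was -0.51 (SE 0.23), and -0.21 without vehicle replicate 1. Its partners gave a mixed picture. Rgs7bp was at 28.0 to 34.1 FPKM in vehicle and 20.9 to 22.4 FPKM in AVE0991 libraries without overlap (-0.42, SE 0.11). Gnb5 was at 40.6 to 46.0 and 40.4 to 54.0 FPKM (0.15, SE 0.12). Neither passed the edgeR threshold (adjusted p = 0.111 and 0.478). After the correction of each library for GC content, Rgs7bp stood at -0.15 (SE 0.11) and Gnb5 at 0.04 (SE 0.12).

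The signs of the fold changes, though not their order within the 10 genes, went with transcript GC content under 45% and above 55%. Across all genes tested, the median log2 fold change was -0.32 for the 4217 genes under 45% GC, 0.06 for the 8771 genes at 45% to 55% and 0.19 for the 3876 genes at or above 55%. Of the 10 genes, 4 were under 45% GC (Rgs7 at 36.7%, Gnai1 at 42.6%, Rgs2 at 43.6%, Rgs4 at 44.0%), and all 4 had a negative log2 fold change. Another 4 were above 55% (Gnao1, Gnai2, Gpsm1 and Gpsm3, at 56.1% to 59.4%), and all 4 had a positive log2 fold change.

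After the per-library GC correction Gpsm1 stayed highest at 0.55, while Gnai2 went from 0.31 to 0.11 (SE 0.10) and Gnai1 from -0.35 to -0.07 (SE 0.08). Rgs7 turned from -0.51 to 0.16 (SE 0.19), and Gpsm3 and Gnao1 turned to -0.18 and -0.07. Rgs4 and Rgs2 were then at -0.66 (SE 0.43) and -0.51 (SE 0.28), Rgs14 at -0.35 (SE 0.72) and Gpsm2 at -0.21 (SE 0.15). The part of library preparation in the GC pattern was not tested.

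**Figure D4:**
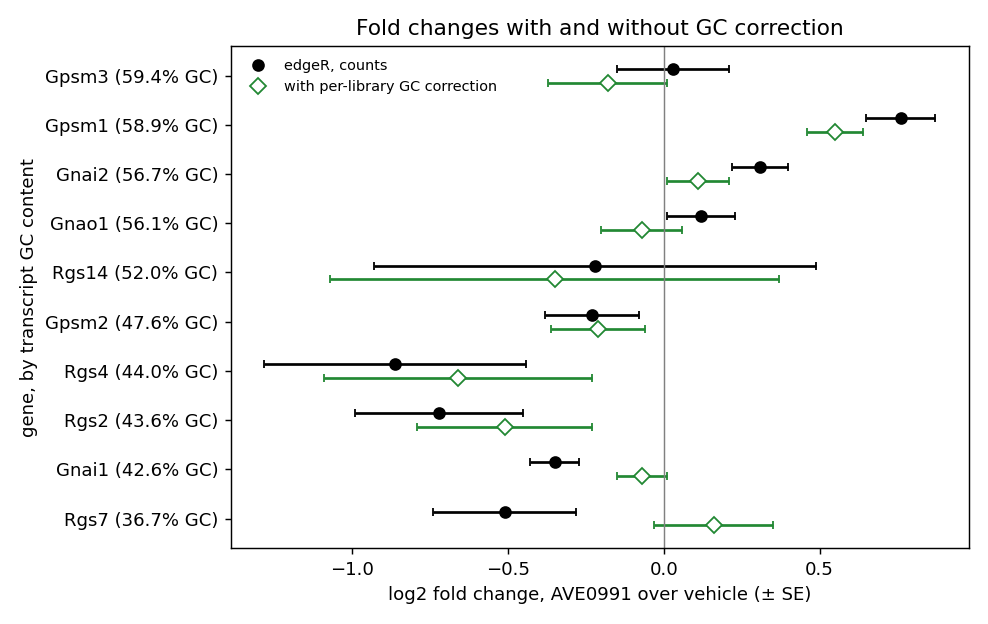
Log2 fold change of AVE0991 over vehicle (± SE) for the 10 genes, ordered by GC content of the longest transcript, from edgeR on counts (black circles) and with the per-library GC correction (open green diamonds). Gpsm1 stays at 0.55 after the correction, whereas Rgs7, at 36.7% GC, moves from -0.51 to 0.16.

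Beyond the 10 genes, 113 tested pathway genes were read from lists drawn up from knowledge of Gi/o signalling. They include 8 alpha subunits of other G protein classes. Of the 113, edgeR called 0 higher and 1 lower, against 0.0344% and 0.830% of all genes. By edgeR, 22 of the 113 had an unadjusted p under 0.05, against 4796 of all 20363. DESeq2 called 6 higher and 5 lower, against 4.97% and 6.56% of all genes, and limma-voom 2 and 3, against 2.20% and 3.54%. The median log2 fold change was -0.09, against -0.01 over all genes tested and -0.23 over the 10 genes. The called gene was Ccdc88a, encoding girdin, which activates Gi alpha without a receptor and binds actin. Ccdc88a was at 11.2, 8.42 and 11.0 FPKM in vehicle and 4.95, 4.64 and 4.35 FPKM in AVE0991 replicates 1, 2 and 3, without overlap. It fell by 1.00 on the log2 scale (SE 0.14, edgeR adjusted p = 0.043), which is 2.00-fold. It lies at 38.9% GC, and the log2 fold change was -0.47 after the GC correction. No pathway gene was called lower in that fit, where 1 gene of all was called higher and 0 lower. With any 1 library other than AVE0991 replicate 1 left out, no pathway gene was called lower either, and 0 genes of all were called. Without AVE0991 replicate 1, 9 pathway genes were called higher and 10 lower, against 6.63% and 4.76% of all genes.

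Among the 16 Gpsm partners and non-receptor regulators (median -0.04), the FERM-domain proteins that bind Gpsm proteins did not pass: Frmpd1 was at 4.72 to 5.84 FPKM in vehicle and 7.10 to 9.42 FPKM in AVE0991 libraries (0.66, SE 0.15), and Frmpd4 at 12.2 to 13.6 and 7.85 to 10.2 FPKM (-0.37, SE 0.12). Of the 3 other GoLoco genes (median 0.18), Rgs12 (0.18) and Rap1gap (0.09) overlapped between the groups. Pcp2, a GoLoco protein of Purkinje cells, was at 12.1, 4.88 and 1.91 FPKM in vehicle and 5.10, 199 and 344 FPKM in AVE0991 replicates 1, 2 and 3. It was high in the same libraries 2 and 3 as the Purkinje cell list, which holds it and summed to 592 to 659 FPKM in vehicle and 749.8, 1342 and 1680.0 FPKM in AVE0991 replicates 1, 2 and 3. The largest term of that sum in every library was Aldoc, which the astrocyte list also holds. Aldoc was at 437 to 495 FPKM in vehicle and 584, 815 and 865 FPKM in AVE0991 replicates 1, 2 and 3, so the sum does not read Purkinje cells alone.

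The 14 other RGS genes tested had a median of -0.27, with 3 above 0 and 11 below. Rgs17, a brain RGS of the RZ class, was at 6.85 to 9.35 and 2.87 to 5.33 FPKM without overlap (-0.79, SE 0.25; -0.14 after the GC correction). Rgs8, known from Purkinje cells, was at 18.5 to 26.1 FPKM in vehicle and 24.4, 75.6 and 106 FPKM in AVE0991 replicates 1, 2 and 3. The 3 other Gi/o alpha subunits tested (median -0.14) and the 8 alpha subunits of other classes (median 0.17) held 0 calls. Gnas, the stimulatory subunit, was the most abundant of these at 650.5 ± 64.2 and 704 ± 111 FPKM.

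The 16 beta and gamma subunits had a median of -0.02. Gng2 was at 29.3 to 31.0 FPKM in vehicle and 16.3 to 23.3 FPKM in AVE0991 libraries (-0.62, SE 0.14), Gnb4 at 6.57 to 8.60 and 8.82 to 11.5 FPKM (0.53, SE 0.16), and neither passed. The 5 R7 partners (median 0.03), 10 adenylyl cyclases (0.07) and 4 GIRK channels (-0.12) held 0 calls.

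The 36 receptors had a median of -0.22, with 10 above 0, 26 below and 0 called. Grm7, a presynaptic glutamate receptor, was at 35.5 to 61.5 FPKM in vehicle and 12.9 to 23.6 FPKM in AVE0991 libraries (-0.93, SE 0.22; -0.90 after the GC correction). P2ry12, the ADP receptor of microglia, was at 7.37 to 9.49 and 3.53 to 6.63 FPKM (-0.71, SE 0.22; -0.16 after the GC correction). Grm4, known from cerebellar granule cells, was at 14.9 to 17.8 FPKM in vehicle and 16.8, 96.5 and 126 FPKM in AVE0991 replicates 1, 2 and 3. It was high in the libraries with high granule cell markers.

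**Figure D5:**
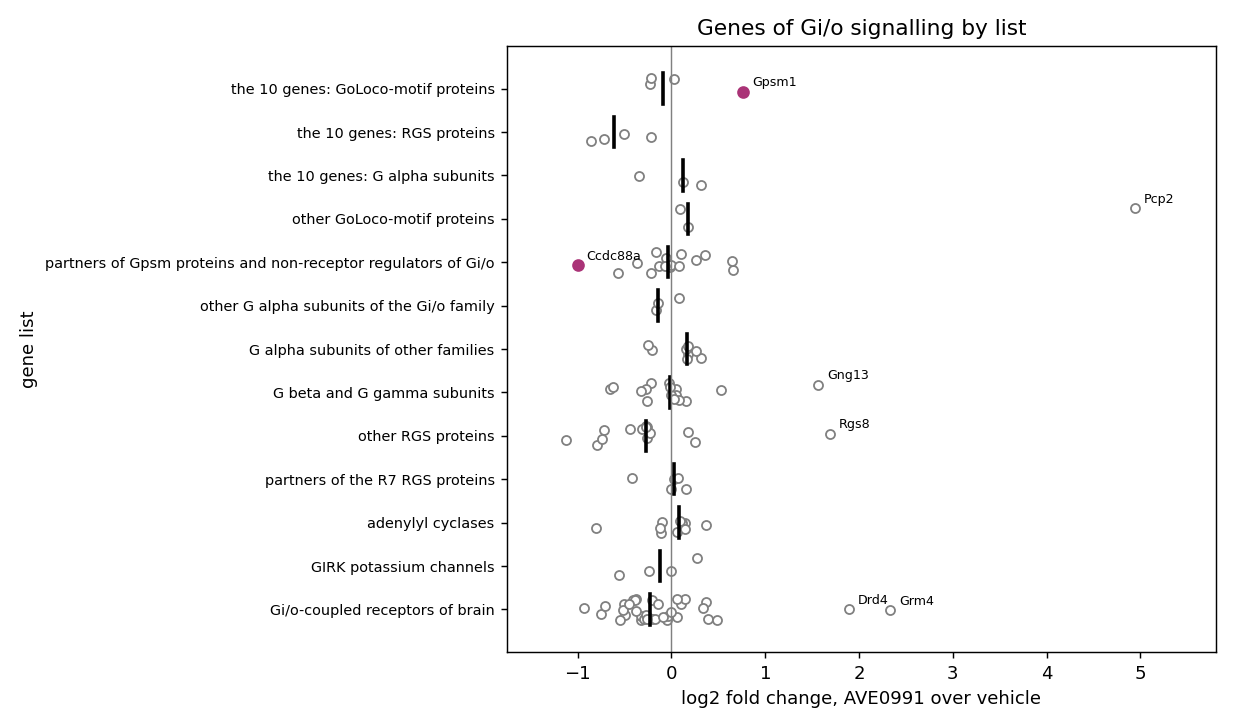
Log2 fold change of AVE0991 over vehicle for each tested gene of 13 lists, 3 of them holding the 10 genes (circles: genes; filled: called at an edgeR adjusted p under 0.05; black bars: list medians; names: called genes and those beyond 1.5). The filled circles are Gpsm1 at 0.76 and Ccdc88a, which fell by 1.00.

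The genes whose level followed Gpsm1 most closely over the 6 libraries were Gga1, Lrrc41, Zfp628, Tsc2 and Mbtps1, by Pearson correlation of log2 CPM among 9864 named genes with a mean of at least 10 CPM (r of 0.993 to 0.997). These points share 6 libraries in 2 groups, and with the group means removed the correlations were 0.94 to 0.98. The 5 genes were chosen by their correlation over these same libraries, so both sets of values are a description and not separate support. Their fold changes were smaller than that of Gpsm1: Tsc2, a brake on mTOR signalling, averaged 154 ± 1.18 CPM with vehicle and 198 ± 11.9 CPM with AVE0991 (1.28-fold higher), and Gga1, a sorting adaptor, at 72.8 ± 1.26 and 84.9 ± 2.69 CPM (1.17-fold higher). The 5 genes lie at 50.2% to 63.5% GC, and after the GC correction their log2 fold changes were 0.02 to 0.21.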

How the data were processed

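The authors deposited 1 table with estimated counts and FPKM per library and row, and 1 with their comparison (log2 fold change and DESeq2 q-value, per the file headers). FPKM was worked out from the values, since the deposited headers name no unit. FPKM was not TMM-scaled, and summed over gene rows to 586007 to 590633 in vehicle and 638167 to 720032 in AVE0991 libraries. For genes with at least 10 CPM, the FPKM log2 ratio of AVE0991 over vehicle was shifted by a median of -0.08 against the edgeR log2 fold change. Reads were aligned with HISAT to mm9, per the submitters' processing notes; the counting program, annotation and strand use were not given in the sources used here. Deposited gene-row counts, of which 81.6% were whole, were rounded. Gene rows were analysed in R 4.3.3 with edgeR 4.0.16 (filterByExpr, TMM, robust quasi-likelihood test of AVE0991 against vehicle, no covariates), with Benjamini-Hochberg adjustment over all 20363 genes tested and calls at 0.05. SE is the log2 fold change over the square root of F. DESeq2 1.42.0 and limma 3.58.1 were alternatives. The GC correction subtracted a lowess curve (span 0.3) of each library's deviation on GC content of the longest GENCODE M21 transcript, known for 82.8% of genes. GRCm38 served for names, GC content, transcript length, exon overlap and promoters only. The fit was tested on simulated counts. Named were the 10 genes, called pathway genes, up to 3 genes of each list by smallest p and by highest FPKM, and the 5 genes most like Gpsm1. The members, lists and tests were chosen with earlier results of these data known. Same-numbered libraries were not treated as pairs in the main fit.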

Additional observations from a re-analysis of the deposited data

How the results depend on the processing

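Of 17 alternative fits, Gpsm1 kept its call in 7 and its sign in all; Gnai1, Gnai2, Rgs2 and Rgs4 also kept their signs. Genes called higher and lower, 7 and 169 over all genes, were 58 and 379 without a filter on low counts, 18 and 328 at a minimum mean of 1 CPM, 1012 and 1335 by DESeq2, 449 and 721 by limma-voom, 1 and 0 after the GC correction, and 1 and 1 with circular RNA rows in the fit. Leaving out 1 library gave 0 to 1386 higher and 0 to 995 lower, for the 10 genes 0 to 1 and 0 to 2, and for pathway genes 0 to 9 and 0 to 10; the high ends came without AVE0991 replicate 1, and the others gave 0 (unadjusted p under 0.05: 3205 to 3818 genes). Of the 10 genes 2 were higher and 1 lower by DESeq2, and 1 and 2 by limma-voom; of pathway genes 6 and 5, and 2 and 3. The counts of the 10 genes called higher and of pathway genes called lower went from 1 to 0 after the GC correction, with circular RNA rows and without AVE0991 replicates 2 and 3, where 0 genes of all were called (2833 at an unadjusted p under 0.05). The cause was not tested.

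Signs turned for Rgs14 without vehicle replicate 1 (0.14), AVE0991 replicate 2 (0.28) or AVE0991 replicates 2 and 3 (0.49), for Gpsm3 without vehicle replicate 2 (-0.08) or AVE0991 replicates 2 and 3 (-0.04), and for Gpsm2 in that last fit (0.01). Leaving out 1 library gave -0.76 to 0.28 for Rgs14 and -0.08 to 0.11 for Gpsm3. After the GC correction, Gpsm3, Rgs7 and Gnao1 turned to -0.18, 0.16 and -0.07, and with GC correction and replicate block to -0.17, 0.19 and -0.08. Per kilobase of the longest transcript, levels were 2.89 for Gpsm2, 31.3 for Rgs7, 38.2 for Gnai1 and 127 for Gnao1, against 3.36, 22.7, 45.7 and 209 FPKM.

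The labels do not say whether replicate numbers pair the libraries. Deviations of same-numbered libraries from their group means correlated at -0.02, 0.09 and -0.35, and those of different-numbered libraries at -0.32 to 0.39. With so few libraries these values cannot settle whether there was pairing. With the replicate block, and with GC correction and replicate block, 0 genes were called in either direction, among the 10 genes and the pathway genes too (3937 and 2515 genes at an unadjusted p under 0.05), and Gpsm1 stood at 0.76 and 0.55.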

Other observations

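The transcript length implied by the ratio of deposited counts to FPKM, relative to each gene's mean over the 6 libraries, differed between libraries for Rgs7: it was 1.19, 0.902 and 0.985 in vehicle and 0.797, 1.11 and 1.01 in AVE0991 replicates 1, 2 and 3. The highest was 1.50 times the lowest, against a median of 1.02 over the 8986 genes with at least 500 counts in every library, and 0.868% of those genes had a ratio at least as large. The groups overlapped. For Gnai1 the ratio was 1.14 and for Gpsm1, Rgs2, Rgs4 and Gnai2 it was 1.01. The counts and FPKM of Rgs7 therefore give different pictures of single libraries: AVE0991 replicate 1 was the lowest by CPM (84.0), and AVE0991 replicate 2 by FPKM (15.5).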
